A study of Mus musculus with 6 samples.

Results

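The genes of the respiratory chain complexes and the ATP synthase were taken by symbol from a table of 22481 protein-coding gene symbols measured by RNA sequencing of mouse liver. Symbols beginning with mt-, Uqcr or Atp5 were taken, with those of the Ndufa, Ndufb, Ndufc, Ndufs and Ndufv series, Cox4 to Cox8 and Sdha to Sdhd, and 2 assembly factors of the Sdhaf series were left out. This gave 98 genes, of which 13 lie on mitochondrial DNA and 85 in the nucleus. Mitochondrial DNA supplied 7 genes of complex I, 1 of complex III, 3 of complex IV and 2 of complex V. Nuclear genes numbered 37 for complex I, 4 for complex II, 8 for complex III, 18 for complex IV and 18 for complex V. The symbols are older ones and are not a perfect guide to the protein. Ndufa4 is counted here with complex I by its symbol, but its protein is now placed in complex IV. Atp5sl is named Dmac2 in GENCODE M21 and is known in human cells as an assembly factor of complex I. Atp5l-ps1 carries the symbol of a pseudogene.

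The mitochondrial respiratory chain is a set of protein complexes in the inner membrane that pass electrons from NADH and succinate to oxygen and pump protons, and the ATP synthase uses the proton gradient to make ATP. By convention, complexes I to IV are NADH dehydrogenase, succinate dehydrogenase, the cytochrome bc1 complex and cytochrome c oxidase, and complex V is the ATP synthase. Mitochondrial DNA encodes a few core subunits of every complex except complex II, and the nucleus encodes all the others, so that the complexes are assembled from transcripts of both genomes. The liver relies on this chain in fasting, when hepatocytes take their energy from fatty acid oxidation and spend it on glucose and urea synthesis.

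The fasted group held 3 liver libraries from mice without food for 16 h, and the fed group held 3 from mice with free access to food. All mice were 10-week-old C57BL/6J males without any other treatment or allele in the labels. Ribosomal RNA had been removed from total RNA, which keeps mitochondrial transcripts in the libraries. Nothing in the labels ties a library to its own mouse, and the spread behind each p-value is that among libraries, which may in part be technical.

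Totals over all genes were 11157991 to 11639382 counts in the fasted libraries and 12289648 to 14771819 in the fed libraries, after scaling of the deposited estimates to whole reads. A list of 9 hepatocyte markers summed to 101600 to 113300 CPM (counts scaled to library totals that were adjusted by TMM factors) in fasted and 25370 to 75670 CPM in fed libraries. Alb, the albumin gene and the most abundant of these markers, was listed at 0 in fed library 2, which lowers that library's sum. An acute phase list of 18 plasma proteins and related genes summed to 83310 to 165100 CPM in fasted libraries and to 48700, 185200 and 320300 CPM in fed libraries 1, 2 and 3. Fed libraries 1 and 3 thus stood apart from each other at the low and high end of that list. Fed library 3 was also high for Spp1, listed among 5 bile duct markers, with 15.4, 26.4 and 11.9 CPM in fasted and 32.1, 122 and 501.5 CPM in fed libraries. Sox9 of the same list was likewise highest there, with 3.89, 2.74 and 1.21 CPM in fasted and 1.27, 4.72 and 39.3 CPM in fed libraries, while Krt7, Krt19 and Epcam, the other 3 markers, stayed under 1 CPM in every library.

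Of the 98 genes, 89 had enough counts for the test between groups, 12 of mitochondrial DNA and 77 nuclear. The 9 others were mt-Atp6, Cox4i2, Cox6a2, Cox6b2, Cox7a1, Cox7b2, Cox8b, Cox8c and Atp5l-ps1. Levels are given first, as FPKM (fragment counts scaled by gene length and library size), which allows comparison between genes, and differences after that, as CPM and log2 fold changes of fasted over fed.

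Most nuclear subunits averaged 29.7 FPKM (Ndufs1) to 589 FPKM (Ndufa4) over all libraries. Ndufa11, some tissue isoforms and related genes lay below that range. In complex I, Ndufa4 was highest with 635 ± 83.6 FPKM in fasted and 543 ± 154 FPKM in fed livers (SD, n = 3 each). The accessory subunits Ndufa6 and Ndufb9 followed, Ndufa6 with 258 ± 41.8 FPKM in fasted and 205 ± 72.1 FPKM in fed livers. Ndufb9 had 240 ± 46.2 FPKM in fasted and 210 ± 82.2 FPKM in fed livers. Ndufa3, another accessory subunit, chosen after its values were seen, had 225 ± 37 FPKM in fasted and 212 ± 35.5 FPKM in fed livers. These 3 genes differ by less than their SDs, and their order is not resolved. Ndufa4l2, a paralog of Ndufa4 known as a hypoxia-induced gene, was the lowest of the complex with 1.11 ± 0.154 FPKM in fasted and 1.44 ± 0.522 FPKM in fed livers. Among the others, Ndufa11 stood lowest with 7.83 ± 0.989 FPKM in fasted and 9.01 ± 1.51 FPKM in fed livers.

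Complex II has no subunit from mitochondrial DNA, and its 4 genes lay close together. Means over all 6 libraries ran from 92.8 FPKM for Sdha, the flavoprotein that oxidises succinate, to 123 FPKM for Sdhd, a membrane anchor. Sdhb, the iron-sulfur subunit, and Sdhc, the other anchor, averaged 109 and 99.7 FPKM. In complex III the small subunit Uqcrq was highest with 543 ± 51.7 FPKM in fasted and 505 ± 59.3 FPKM in fed livers. Uqcrh, the hinge protein, followed with 318 ± 49.7 FPKM in fasted and 287 ± 63.8 FPKM in fed livers. Uqcrc1, a core protein, was lowest with 71.9 ± 7.50 FPKM in fasted and 66.1 ± 25.9 FPKM in fed livers.

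Complex IV was led by Cox6c with 450 ± 47.9 FPKM in fasted and 414 ± 99.7 FPKM in fed livers. Cox4i1, the general isoform of subunit 4, had 391 ± 48.6 FPKM in fasted and 311 ± 69.3 FPKM in fed livers, and Cox6b1 had 307 ± 58.7 FPKM in fasted and 306 ± 74.6 FPKM in fed livers. In complex V the catalytic beta subunit gene Atp5b had 523 ± 81.5 FPKM in fasted and 427 ± 176 FPKM in fed livers. The 3 genes Atp5g1, Atp5g2 and Atp5g3 encode the identical c subunit of the membrane ring and differ in their targeting peptides. Atp5g3 gave most of that transcript, with 406 ± 47.6 FPKM in fasted and 319 ± 107 FPKM in fed livers. Atp5g1 had 89.0 ± 25.2 FPKM in fasted and 105 ± 8.57 FPKM in fed livers, and Atp5g2 had 89.5 ± 16.3 FPKM in fasted and 84.8 ± 9.09 FPKM in fed livers. Atp5s and Atp5sl were far lower, at 3.90 and 13.0 FPKM over all libraries.

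**Figure D1:**
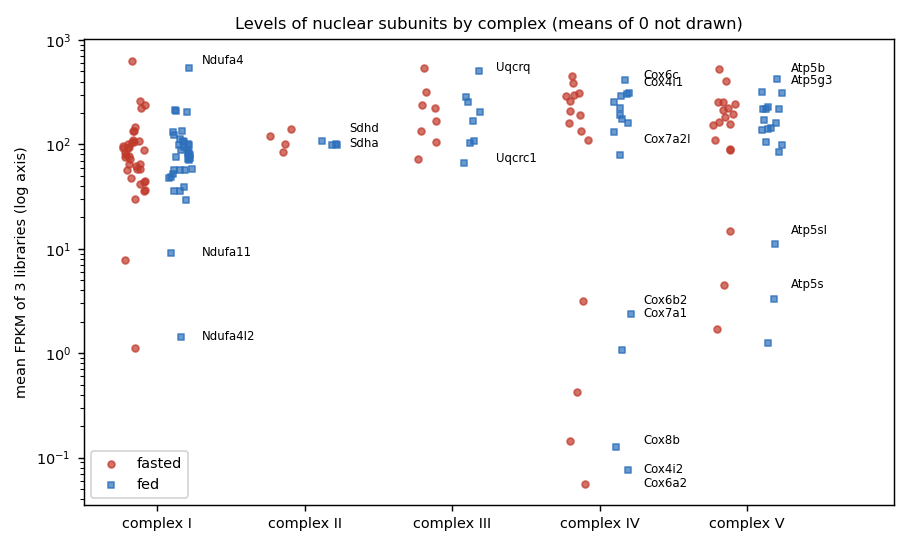
Mean FPKM of each nuclear subunit gene over 3 fasted libraries (red circles) and 3 fed libraries (blue squares), by complex, on a log axis. The median of the 77 subunits tested is 106 FPKM, with wide spread around it. Ndufa4 is highest at 589 FPKM over all libraries, and the tissue isoforms of complex IV lie far below the rest.

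Complex IV has isoforms that are known from muscle, lung or testis, and the table showed the general isoforms in these livers. Cox6a1 had 300 ± 52.4 FPKM in fasted and 294 ± 79.8 FPKM in fed livers, while its heart and muscle counterpart Cox6a2 was listed above 0 in a single fasted library, at 0.169 FPKM. Cox8a had 292 ± 55.5 FPKM in fasted and 257 ± 50.7 FPKM in fed livers. Cox8b, of heart and brown fat, was at 0.432 FPKM in fasted library 1, at 0.378 FPKM in fed library 3 and listed at 0 in the other libraries. Cox4i2, the lung isoform, was listed at 0 in the fasted libraries and at 0.125, 0.105 and 0 FPKM in the fed libraries. Cox7b had 208 ± 44.0 FPKM in fasted and 174 ± 64.5 FPKM in fed livers, and Cox7b2 and Cox8c, known from testis, were listed at 0 in every library. A total of 3 counts corresponds to 0.187 to 0.291 CPM in these libraries, which limits what could be seen of such genes (counting error only).

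Cox6b2 and Cox7a1 had a few more counts in 1 group than in the other but did not reach the filter of the test. Cox6b2, the testis form of Cox6b1, had 0.874, 2.01 and 0.952 CPM in fasted and 0.141, 0.435 and 0.420 CPM in fed libraries. Cox7a1, the heart and muscle form of Cox7a2, had 0.194, 0.0914 and 0 CPM in fasted and 0.706, 0.249 and 0.504 CPM in fed libraries. The groups did not overlap for either gene, Cox6b2 being higher and Cox7a1 lower in fasted livers, against 29.0% of all genes tested. These values rest on 2 to 22 counts per library for Cox6b2 and 0 to 10 for Cox7a1, and no direction is drawn from them. With 3 libraries against 3, an exact permutation test cannot give a two-sided p below 0.1, and none is given. Of 8 striated muscle markers, the summed level was 5.34, 0.274 and 0 CPM in fasted and 0.282, 0 and 0 CPM in fed libraries. Acta1 and Myh1 were at 0 throughout, and nearly all of the sum of fasted library 1 came from Mb, the myoglobin gene, with 5.15 CPM. Of 4 brown fat markers, Ucp1, the one that defines these cells, was listed at 0 in every library and Cidea was at no more than 0.0971 CPM. The list summed to 45.5, 61.1 and 56.7 CPM in fasted and 334.7, 48.9 and 17.6 CPM in fed libraries. Its sum came from Elovl3, an elongase of fatty acids, with 24.1, 39.4 and 30.2 CPM in fasted and 327.9, 48.3 and 12.6 CPM in fed libraries, and from Ppargc1a, which is described with the regulators.

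None of the 89 genes tested passed an adjusted p of 0.05 between fasted and fed livers in either direction (quasi-likelihood test of edgeR, two-sided, Benjamini-Hochberg over 11633 genes). Over all genes tested, 2.52% passed, 1.41% higher and 1.11% lower in fasted livers. At an unadjusted p under 0.05, 5 of the 89 stood, against 21.8% of all genes. DESeq2 called 2 of the 89, mt-Nd6 (adjusted p = 0.0326) and Cox7a2l (adjusted p = 0.045), against 8.15% of all genes. A test that calls no gene does not show that levels were equal, and the intervals give the sizes of change that these libraries allow. The 95% interval of the fold change lay within 2-fold on both sides for 77 of the 89 genes, 72 of them nuclear, against 58.7% of all genes. An estimate of at least 1.5-fold in either direction was found for 4 of the 89, mt-Nd6, mt-Co3, mt-Atp8 and Atp5sl, against 23.4% of all genes.

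The nuclear estimates were small and lay mostly on 1 side. Of the 77 nuclear genes tested, 62 had an estimate above 0, against 48.7% of all genes tested, a count that fell to 41 with library totals in place of TMM factors, when the median of all genes moved to -0.155 on the log2 scale. Against the median of all genes, 63 of 77 were higher with TMM factors and 62 with library totals. The median log2 fold change was 0.17 in the nuclear set and -0.016 over all genes. The middle 50% of the nuclear estimates ran from 0.069 to 0.291, and that of all genes from -0.333 to 0.266. The nuclear median stayed above 0 without any 1 library, but its size moved, to 0.279 without fasted library 2, 0.071 without fasted library 3, 0.347 without fed library 1, 0.078 without fed library 2 and 0.069 without fed library 3. Bulk tissue cannot separate fewer cells of a type from less RNA per cell, and that holds for cell type markers too. Of 9 hepatocyte markers, 8 had an estimate above 0, against 48.7% of all genes tested. Cyp2e1 and Pck1 passed the test, 2 of the 9, against 2.52% of all genes. Serpina1a and Ttr were near 0, with log2 fold changes of 0.052 and -0.13, and the estimate of Alb, 1.15, had a standard error of 2.14 with its listed 0 in fed library 2. The part of hepatocyte content in these estimates was not tested.

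**Figure D2:**
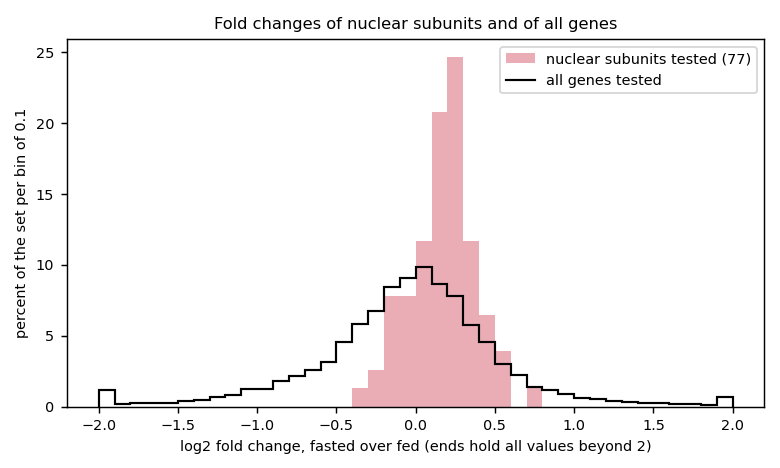
Share of genes per bin of 0.1 in log2 fold change, fasted over fed, for the 77 nuclear subunits tested (red) and all 11633 genes tested (black line). The nuclear subunits form a narrow peak around a median of 0.17, while all genes spread more widely around -0.016.

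By complex, the medians of the nuclear estimates were all above 0 and small. Complex I had a median log2 fold change of 0.13 over 37 genes, complex II 0.32 over 4, complex III 0.22 over 8, complex IV 0.21 over 11 and complex V 0.29 over 17. The median standard error of a single gene was 0.21, and the differences between complexes were not tested. In complex IV all 11 estimates were above 0, in complex III 7 of 8, in complex II 3 of 4, in complex V 13 of 17 and in complex I 28 of 37.

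Complex I, the entry point for electrons from NADH, had the lowest median. Its highest estimate was that of Ndufa6, a subunit of the LYR family, on mouse chromosome 15 (chr15:82350140-82354322 in GRCm38, minus strand). Ndufa6 had 111, 99.6 and 131 CPM in fasted and 111, 80.7 and 62.8 CPM in fed libraries, and its log2 fold change was 0.43 (SE 0.23, adjusted p = 0.329 by edgeR). Fasted and fed libraries overlapped at the upper end of the fed range. Ndufa4 had 231, 205 and 258 CPM in fasted and 233, 162 and 162 CPM in fed libraries (log2 fold change 0.32, SE 0.21). Ndufa10, chosen after its values were seen, had 98.3, 80.7 and 91.9 CPM in fasted and 84.8, 65.9 and 58.2 CPM in fed libraries, which again overlapped. Ndufs8, an iron-sulfur core subunit and likewise chosen afterwards, lay on the other side of 0 with a log2 fold change of -0.25 (SE 0.18) and 41.7, 32.6 and 38.3 CPM in fasted against 54.0, 41.6 and 37.8 CPM in fed libraries. Ndufa4l2 was the lowest estimate at -0.30, with a standard error of 0.42 on about 1 CPM. No gene of nuclear complex I had groups that did not overlap.

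In complex II the flavoprotein had the lowest estimate, and none of the 4 genes passed the test. Sdha had 280, 221 and 276 CPM in fasted and 422, 233 and 210 CPM in fed libraries (log2 fold change -0.16, SE 0.29). All fasted values of Sdha lay inside the range of the fed libraries, and Gm16125 overlaps it on the opposite strand. Sdhd had 183, 153 and 198 CPM in fasted and 163, 125 and 94.96 CPM in fed libraries (log2 fold change 0.48, SE 0.23, adjusted p = 0.272 by edgeR). A single fed library, number 1, lay above the lowest fasted library. Sdhb had 129, 109 and 159 CPM in fasted and 154, 89.1 and 63.3 CPM in fed libraries, so its fed values alone spanned more than the difference between groups.

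Complex III passes electrons from ubiquinol to cytochrome c, and its Rieske iron-sulfur protein is encoded by Uqcrfs1 (chr13:30540308-30545362, minus strand). Uqcrfs1 had 182, 171 and 198 CPM in fasted and 167, 125 and 118 CPM in fed libraries. All fasted libraries lay above all fed ones, by a margin of a few CPM at the nearest. The log2 fold change was 0.43 (SE 0.18, adjusted p = 0.233 by edgeR). The lowest estimate was that of Uqcr11, a small subunit, at -0.025 with 78.8, 66.5 and 75.6 CPM in fasted and 92.2, 69.9 and 62.7 CPM in fed libraries. Uqcrq had 216, 183 and 215 CPM in fasted and 187, 177 and 166 CPM in fed libraries, the tightest fed spread of the complex.

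In complex IV the highest estimate belonged to Cox7a2l (chr17:83501918-83517330, minus strand), which encodes a factor that joins complexes III and IV in supercomplexes and of which C57BL/6J mice are known to carry a shortened allele. Cox7a2l had 104, 126 and 115 CPM in fasted and 87.8, 79.9 and 64.0 CPM in fed libraries. Fasted library 2, the lowest of its group for nearly all other subunits, was the highest here, and the groups did not overlap. The log2 fold change was 0.58 (SE 0.17), a fold of 1.49 with a 95% interval from 1.13 to 1.96, and the adjusted p was 0.117 by edgeR. Its relative Cox7a2 had the lowest estimate of the complex, 0.069 (SE 0.21), with 107, 85.8 and 125 CPM in fasted and 125, 84.2 and 94.0 CPM in fed libraries. Cox4i1 had 270, 222 and 275 CPM in fasted and 227, 167 and 180 CPM in fed libraries (log2 fold change 0.42, SE 0.19, adjusted p = 0.25 by edgeR). The Cox4i1 groups touched, since fed library 1 lay just above fasted library 2, and GENCODE places Gm20388 on the same strand over it and Emc8 on the opposite one, so its counts are uncertain to that extent. Cox6c, which shares its place with Vps13b on the opposite strand, had 171, 159 and 189 CPM in fasted and 180, 131 and 138 CPM in fed libraries.

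In complex V the groups did not overlap for 4 of the 17 genes tested, against 29.0% of all genes tested. Atp5d, the delta subunit of the central stalk, named after its values were seen (chr10:80138632-80145818, plus strand, with Cbarp on the opposite strand), had 177, 137 and 168 CPM in fasted and 127, 115 and 92.1 CPM in fed libraries. Its log2 fold change was 0.53 (SE 0.19, adjusted p = 0.161 by edgeR). Atp5e, the epsilon subunit of the same stalk (chr2:174461072-174464105, minus strand), went the other way with 78.4, 59.3 and 75.02 CPM in fasted and 94.5, 78.9 and 80.4 CPM in fed libraries. The Atp5e groups were apart by under 1 CPM, and the log2 fold change of -0.26 (SE 0.16) had an adjusted p of 0.408 by edgeR. The stalk subunits delta and epsilon therefore had estimates of opposite sign, each short of the threshold, and the difference between them was not tested.

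The remaining pair that did not overlap in complex V is made of genes that are not strict subunits. Atp5sl (chr7:25619414-25625551, plus strand) had 23.8, 19.6 and 27.9 CPM in fasted and 17.7, 14.4 and 8.73 CPM in fed libraries, with the highest nuclear estimate, a log2 fold change of 0.80 (SE 0.27, adjusted p = 0.151 by edgeR). Atp5s, known as coupling factor B and named here after its values were seen, had 6.70, 6.58 and 6.92 CPM in fasted and 3.95, 5.35 and 4.95 CPM in fed libraries (log2 fold change 0.50, SE 0.21, adjusted p = 0.227 by edgeR). Both were higher in all 3 fasted libraries. The catalytic beta subunit had a smaller estimate relative to its error: Atp5b had 898, 775 and 954 CPM in fasted and 956, 600 and 522 CPM in fed libraries (log2 fold change 0.34, SE 0.27). Of the c subunit genes, Atp5g3 had a log2 fold change of 0.45 (SE 0.23), Atp5g2 of 0.15 (SE 0.16) and Atp5g1 of -0.18 (SE 0.21), and none of them stood apart from 0 by the test.

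In all, groups did not overlap for 8 of the 89 genes, 7 higher in fasted livers (mt-Nd5, mt-Nd6, Uqcrfs1, Cox7a2l, Atp5d, Atp5s and Atp5sl) and 1 lower (Atp5e). Over all genes tested, groups did not overlap for 29.0%, 15.3% higher and 13.7% lower. The share among the subunits, 8.99%, is below that background.

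**Figure D3:**
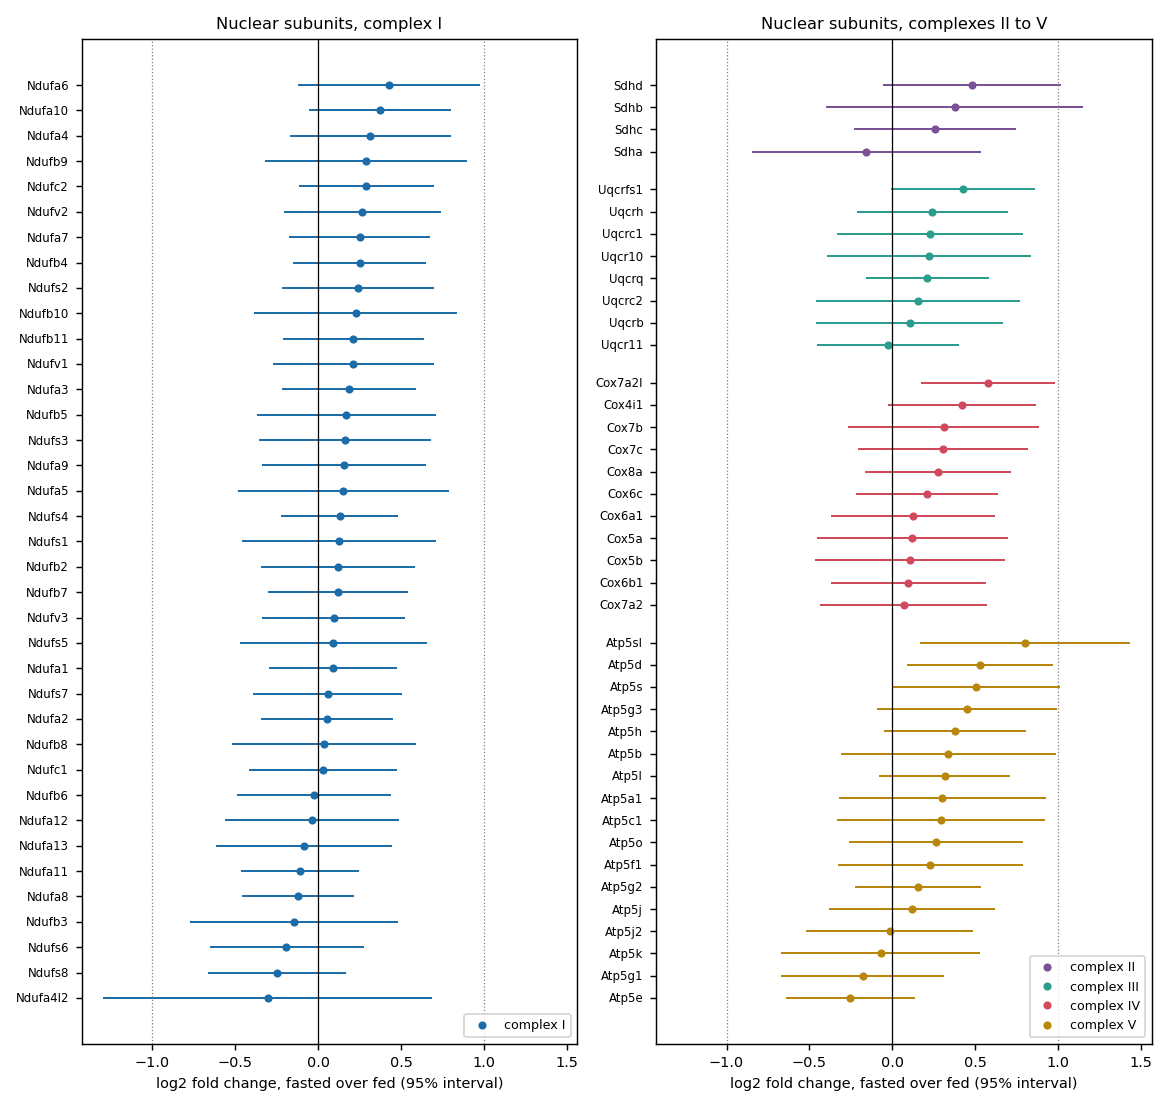
Log2 fold change of fasted over fed with its 95% interval for each of the 77 nuclear subunits tested, sorted within complexes, from edgeR; dotted lines mark 2-fold. Most points lie a little right of 0, and the intervals of Cox7a2l, Atp5d, Atp5s and Atp5sl exclude 0 before adjustment for 11633 genes.

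What the nuclear subunits shared most plainly was their order among libraries of the same group. Fed library 1 was the highest of the fed libraries for 73 of 77 nuclear genes, against 35.8% of all genes tested. Fed library 3 was the lowest for 55 of 77, against 39.4% of all genes. In the fasted group, library 2 was the lowest for 76 of 77 nuclear genes, against 31.7% of all genes, with Cox7a2l as the exception. For 26 of the 77 nuclear genes and 6 of the 12 mitochondrial ones, all fasted libraries lay inside the range of the fed libraries, against 19.2% of all genes. A high fed library 1 was not particular to the nuclear subunits. It was the highest fed library for 12 of the 12 mitochondrial genes too. By mean log2 CPM, set to 0 over the 6 libraries, the complex I assembly factors described below had 0.272, 0.031 and 0.003 in fed libraries 1, 2 and 3. The carriers described below differed, with -0.075, -0.051 and -0.2.

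The mean log2 CPM of the 77 genes, set to 0 over the 6 libraries, was 0.13, -0.12 and 0.27 in fasted libraries 1, 2 and 3 and 0.23, -0.19 and -0.32 in fed libraries 1, 2 and 3. Complexes I to V followed this pattern each on their own, and complex II had the widest fed range, from 0.38 in library 1 to -0.55 in library 3. In sums, all 85 nuclear genes made up 8861, 7510 and 9619 CPM in fasted and 9442, 6695 and 6073 CPM in fed libraries. The means of 8664 ± 1068 CPM in fasted and 7403 ± 1793 CPM in fed livers differ by less than the fed SD. The median SD of log2 CPM per nuclear gene was 0.198 among fasted and 0.306 among fed libraries, and over all genes it was 0.214 among fasted and 0.269 among fed libraries.

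The acute phase list ran the other way among the fed libraries. Its mean log2 CPM, set to 0 in the same manner, was 0.19, 0.36 and -0.61 in fasted libraries 1, 2 and 3 and -2.09, 0.62 and 1.53 in fed libraries 1, 2 and 3. Of this list, Hpx, which binds heme, and Fga, a fibrinogen chain, had the highest counts, with 20760 ± 5628 and 19690 ± 6257 CPM in fasted livers and 27700 ± 20900 and 24630 ± 16370 CPM in fed livers. By the list's mean, the library highest for the acute phase list in each group was the lowest for the nuclear subunits, and the lowest for that list was the highest for them. With those 18 genes taken out before scaling, no subunit passed the test, and the nuclear median log2 fold change was 0.16. That fit gave calls and a median but not the order of the libraries, and the part of the acute phase genes in that order was not tested.

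**Figure D4:**
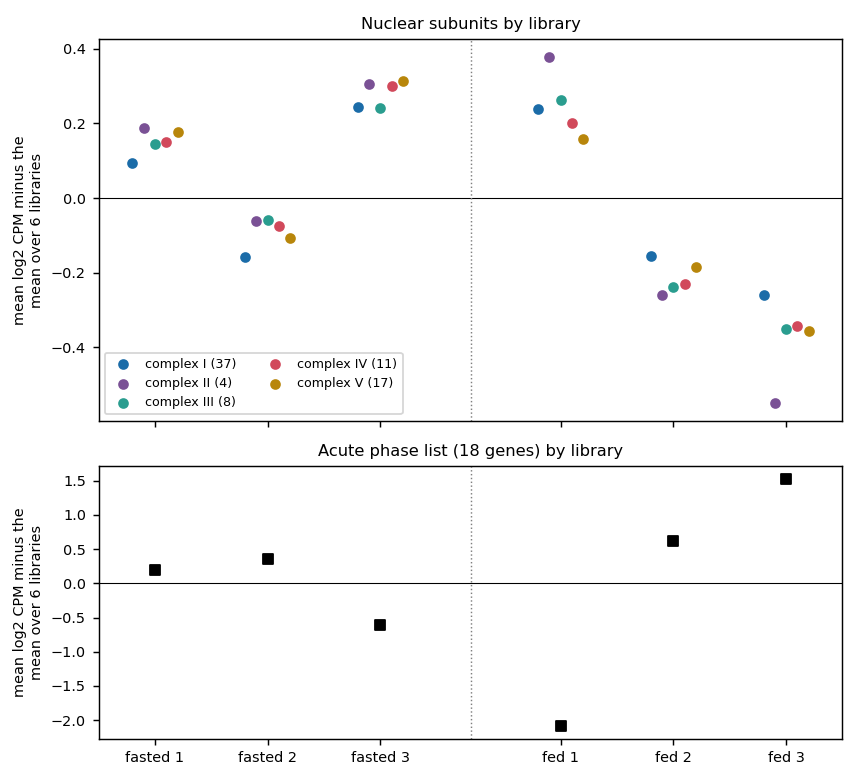
Upper panel, mean log2 CPM of the nuclear subunits of each complex per library, set to 0 over the 6 libraries (number of genes in brackets); lower panel, the acute phase list of 18 genes in the same way. Fasted library 2 and fed libraries 2 and 3 lie below 0 for all complexes, and the acute phase list is above 0 in those libraries and in fasted library 1.

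Mitochondrial DNA is transcribed as long precursors from both strands and cut at the tRNAs between the genes. Of its 13 protein genes 12 lie on the plus strand of the reference and mt-Nd6 alone lies on the minus strand. Together their rows took 4.43%, 4.65% and 4.83% of all counts in fasted libraries 1, 2 and 3 and 6.23%, 4.07% and 3.68% in fed libraries 1, 2 and 3. The highest of all was mt-Co1, the catalytic subunit of complex IV, with 11740 ± 301 FPKM in fasted and 11780 ± 1973 FPKM in fed livers. It was followed by mt-Cytb of complex III with 8181 ± 378 FPKM in fasted and 7461 ± 2241 FPKM in fed livers. The complex I genes mt-Nd2 and mt-Nd1 had 6995 ± 590 and 6475 ± 391 FPKM in fasted livers and 6332 ± 1895 and 5765 ± 1191 FPKM in fed livers.

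Several rows in the middle of the map were lower and varied widely within groups. Within the fed group alone, the highest library exceeded the lowest by 16.1-fold for mt-Co2, 16.0-fold for mt-Nd3, 10.6-fold for mt-Nd4l and 7.96-fold for mt-Co3. In contrast, the ratio was 1.29 for mt-Nd1, 1.48 for mt-Nd2 and 1.23 for mt-Co1. mt-Atp6 was listed at no more than 0.000585 FPKM in every library, and mt-Atp8 at 617 and 68.9 FPKM in fasted libraries 1 and 2, at 496 and 0.0189 FPKM in fed libraries 1 and 2, and with no counts in library 3 of either group. These genes overlap by 43 bases and are known to share a message. The stretch of overlap, at chrM:7927-7969 on the plus strand of GRCm38, holds the start of mt-Atp6 and the end of mt-Atp8.

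overlap of mt-Atp8 and mt-Atp6: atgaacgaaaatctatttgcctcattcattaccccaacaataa

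Of these rows, mt-Co2, mt-Atp6, mt-Co3, mt-Nd3 and mt-Nd4l belong to genes with a near-identical copy in the nuclear genome, and mt-Atp8 shares with such a copy just the 43 bases of its overlap with mt-Atp6. A search of the 13 genes against GENCODE M21 transcripts found copies with at least 99% identity over at least 50% of the gene for mt-Co2, mt-Atp6, mt-Co3, mt-Nd3, mt-Nd4l and mt-Nd4. All 6 are pseudogenes next to each other on chromosome 1, from Gm28439 at chr1:24611535-24612410 to Gm28661 at chr1:24614885-24615565. mt-Co2 matched Gm28661 over 681 bases with 0 differences, and mt-Co3 matched Gm28437 over 783 bases with 0 differences. The best copies of the other genes were less alike: 97.6% identity for mt-Co1 over all 1545 bases, 95.18% for mt-Nd5, 93.64% for mt-Nd6 and 92.91% for mt-Cytb, and none was found for mt-Nd1. The first 90 bases of mt-Co2 and mt-Co1 beside their copies show what a read would have to tell apart, with differing bases in capitals.

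mt-Co2 (chrM:7013-7102, plus strand): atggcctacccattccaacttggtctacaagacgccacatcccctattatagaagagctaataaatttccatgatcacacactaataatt
Gm28661 (chromosome 1): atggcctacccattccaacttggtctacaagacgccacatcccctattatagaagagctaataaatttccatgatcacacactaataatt
mt-Co1 (chrM:5328-5417, plus strand): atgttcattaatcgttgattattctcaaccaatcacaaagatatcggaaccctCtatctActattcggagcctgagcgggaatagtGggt
Gm13340 (chromosome 2): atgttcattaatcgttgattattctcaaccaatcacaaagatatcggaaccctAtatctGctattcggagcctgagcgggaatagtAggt

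In these 90 bases mt-Co2 and its copy differ at 0 positions, and mt-Co1 and its copy at 3. The table holds a row for Gm10222, the copy of mt-Nd4l, at 7.58, 8.60 and 6.75 CPM in fasted and 8.75, 5.28 and 5.46 CPM in fed libraries. The labels and headers do not say how reads that match both places were treated, and the part of the copies in the low rows was not tested. The rows of mt-Co2, mt-Atp8, mt-Atp6, mt-Co3, mt-Nd3, mt-Nd4l and mt-Nd4 are therefore uncertain, and no direction is drawn from them.

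**Figure D5:**
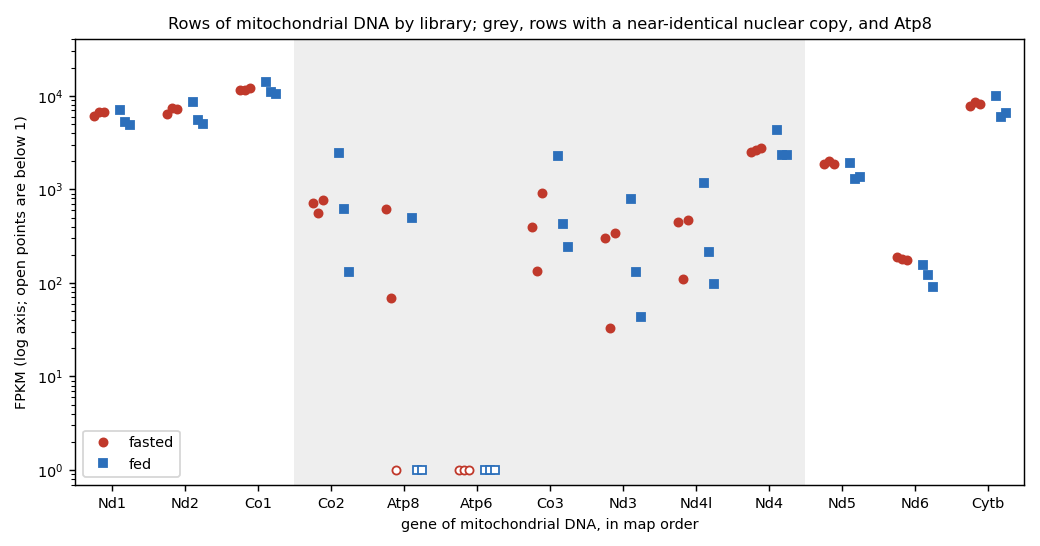
FPKM of the 13 protein genes of mitochondrial DNA in map order, each point a library, 3 fasted (red circles) and 3 fed (blue squares), on a log axis; open points are below 1 FPKM. The shaded rows have a near-identical nuclear copy or (Atp8) overlap one, and all of them but mt-Nd4 are low or scatter widely within groups, while mt-Nd1, mt-Nd2 and mt-Co1 stay between 4887 and 14050 FPKM.

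Across the 6 rows without a near copy, none passed the test, and fed libraries spread more than fasted ones. mt-Nd1 had 5602, 6090 and 5792 CPM in fasted and 5674, 4414 and 4523 CPM in fed libraries (log2 fold change 0.26, SE 0.26). mt-Co1 had 18790, 18400 and 18370 CPM in fasted and 19590, 15870 and 16930 CPM in fed libraries (log2 fold change 0.085, SE 0.30). mt-Cytb had 8989, 9607 and 8799 CPM in fasted and 9889, 6056 and 7461 CPM in fed libraries (log2 fold change 0.23, SE 0.30). In each of these 3 genes, fed library 1 lay within or above the fasted range and fed libraries 2 and 3 lay below it.

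The groups did not overlap for mt-Nd5 and mt-Nd6, which lie side by side in complex I's share of the map. mt-Nd5 had 3635, 3817 and 3436 CPM in fasted and 3177, 2254 and 2675 CPM in fed libraries (log2 fold change 0.43, SE 0.25, adjusted p = 0.36 by edgeR). mt-Nd6 had 76.9, 71.4 and 66.8 CPM in fasted and 55.0, 44.4 and 36.4 CPM in fed libraries. Its log2 fold change of 0.66 (SE 0.18), a fold of 1.58, had the lowest adjusted p of all subunits, 0.0959 by edgeR, and it passed by DESeq2 and without fed library 1 (adjusted p = 0.0461). mt-Nd6 runs on the opposite strand to its neighbours and overlaps mt-Nd5 by 14 bases. The kit marks the strand, but no label or header says whether counting used it, so reads of the opposite strand at mt-Nd6 cannot be separated from its own.

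The table gives several of these genes a shared locus, and how reads were assigned within it is unknown, so the rows were also summed by locus. The locus at chrM:7765-11544, from mt-Atp8 to mt-Nd4, summed to 4103 ± 358 CPM in fasted and 4584 ± 2037 CPM in fed livers (log2 fold change -0.16, SE 0.35). The locus at chrM:11612-15288, of mt-Nd5, mt-Nd6 and mt-Cytb, summed to 12830 ± 608 CPM in fasted and 10550 ± 2408 CPM in fed livers (log2 fold change 0.28, SE 0.31). No locus passed the test.

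Transcripts of the genomes were set side by side by dividing the summed CPM of the 6 rows without a near copy by that of all 85 nuclear genes. The ratio was 4.92, 6.04 and 4.51 in fasted and 4.86, 5.04 and 6.04 in fed libraries. The means of 5.16 ± 0.793 in fasted and 5.31 ± 0.637 in fed livers differ by less than either SD. The highest value of each group belonged to the library with its lowest nuclear sum, fasted library 2 and fed library 3.

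Genes that build, feed or regulate the chain were read from lists in the same fit. Across 12 lists of such genes 1 gene passed the test, against 2.52% of all genes. It was Hsd17b10, a dehydrogenase of branched-chain amino acid breakdown that is also a protein of mitochondrial RNase P, which cuts tRNAs out of the mitochondrial precursor. Hsd17b10 had 297, 278 and 335 CPM in fasted and 87.5, 68.4 and 49.96 CPM in fed libraries. Every fasted library was above 3 times the highest fed library, and the log2 fold change was 2.14 (SE 0.24, adjusted p = 0.0124 by edgeR). Its adjusted p was 0.0569, 0.078 and 0.0536 by edgeR without fasted library 1, 2 and 3 and 0.0834 without fed library 2, while its estimate stayed between 2.05 and 2.21. Among genes chosen after their values were seen, Trmt10c, another RNase P gene, had 23.5 ± 4.46 CPM in fasted and 20.1 ± 5.14 CPM in fed livers, and Elac2, which cuts at the other end of the tRNA, had 19.0 ± 2.67 CPM in fasted and 18.6 ± 0.730 CPM in fed livers.

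Assembly factors had medians below 0, beside -0.016 for all genes tested, and none passed. Of 16 complex I factors, 5 had an estimate above 0 with a median log2 fold change of -0.17. The most abundant were Ndufaf4 with 31.8 ± 7.64 CPM in fasted and 32.2 ± 2.46 CPM in fed livers, and Foxred1 with 31.5 ± 4.54 CPM in fasted and 33.8 ± 6.09 CPM in fed livers. Ndufaf5, chosen after its values were seen, methylates an arginine of a core subunit and had 1.94, 1.28 and 1.90 CPM in fasted and 5.22, 4.23 and 3.69 CPM in fed libraries (log2 fold change -1.35, adjusted p = 0.0699 by edgeR). The 7 factors of complexes II and III had a median of -0.25. Uqcc1, of complex III, had 27.1, 23.0 and 29.3 CPM in fasted and 36.3, 24.3 and 23.4 CPM in fed libraries, and Sdhaf2, which helps attach the flavin of Sdha, had 17.6 ± 2.55 CPM in fasted and 22.6 ± 0.849 CPM in fed livers. The 20 factors of complex IV had a median of -0.021, near that of all genes, and 9 had an estimate above 0. Coa5, a factor of complex IV, had 79.3 ± 1.33 CPM in fasted and 74.1 ± 12.1 CPM in fed livers, and Sco2, which delivers copper, had 49.0 ± 5.44 CPM in fasted and 39.8 ± 12.5 CPM in fed livers. The supercomplex and hypoxia factors Higd1a and Higd2a had log2 fold changes of -0.12 and 0.043. Of the 4 genes for ATP synthase assembly and inhibition, all with estimates below 0 and a median of -0.22, Tmem70 had 34.2 ± 1.17 CPM in fasted and 40.6 ± 7.65 CPM in fed livers, and Atpaf2 had 13.4 ± 0.832 CPM in fasted and 15.4 ± 0.617 CPM in fed livers. Atpif1, the inhibitor, also chosen afterwards, that binds the synthase when the gradient fails, had 8.45, 6.77 and 7.36 CPM in fasted and 10.8, 13.98 and 12.3 CPM in fed libraries (log2 fold change -0.72, adjusted p = 0.0865 by edgeR). All fasted libraries were below all fed ones for both Ndufaf5 and Atpif1.

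A list of enzymes that reduce coenzyme Q without complexes I and II also held the subunits of the electron donor of 1 of them, Etfdh. Of these 8 genes, none passed, 6 had an estimate above 0 and the median log2 fold change was 0.43. Dhodh and Gpd2, chosen after their values were seen, went the other way with log2 fold changes of -0.73 and -0.69. Etfdh, which passes electrons from fatty acid and amino acid dehydrogenases to coenzyme Q, had 333, 303 and 335 CPM in fasted and 222, 127 and 117 CPM in fed libraries (log2 fold change 1.06, SE 0.27, adjusted p = 0.0882 by edgeR). Etfb, a subunit of its electron donor, had 241 ± 29.4 CPM in fasted and 183 ± 16.4 CPM in fed livers. Groups did not overlap for either gene. The 13 genes of coenzyme Q synthesis had a median of -0.06 and none passed. Adck3, a kinase-like protein of that pathway, had 127 ± 0.413 CPM in fasted and 102 ± 78.0 CPM in fed livers, its fed libraries ranging from 17.97 to 172 CPM. Coq9 had 64.1 ± 6.51 CPM in fasted and 56.8 ± 13.6 CPM in fed livers.

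Regulators of these genes in the nucleus were tested in 11 of 13 cases and none passed. An estimate above 0 was found for 7 of the 11, and the median log2 fold change was 0.29. Ppara, the fatty acid receptor that drives fasting genes in liver, had 66.4 ± 25.7 CPM in fasted and 54.3 ± 20.1 CPM in fed livers, and Gabpa, an ETS factor of subunit promoters, had 47.4 ± 4.69 CPM in fasted and 38.9 ± 4.67 CPM in fed livers. Ppargc1a, a coactivator that is induced in fasted liver and drives mitochondrial genes in many tissues, was chosen after its values were seen. It had 21.3, 21.7 and 26.5 CPM in fasted and 6.77, 0.497 and 4.95 CPM in fed libraries (log2 fold change 2.52, SE 0.67, adjusted p = 0.0955 by edgeR). Its groups lay far apart, but the fed values spread more than 10-fold. Its partner Esrra, chosen in the same way, had 22.2, 26.1 and 29.8 CPM in fasted and 18.8, 16.8 and 7.22 CPM in fed libraries (log2 fold change 0.86, adjusted p = 0.193 by edgeR). Ppard, also chosen afterwards, went the other way with 6.61, 7.13 and 5.54 CPM in fasted and 6.35, 13.98 and 13.5 CPM in fed libraries. Its log2 fold change was -0.81 (adjusted p = 0.196 by edgeR), and its groups overlapped. Nrf1, a factor of many subunit promoters and likewise chosen afterwards, had 9.77 ± 1.45 CPM in fasted and 9.99 ± 1.06 CPM in fed livers.

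In the list of mitochondrial DNA transcription and copying none of 11 passed, and the median was -0.051. Tfam, which packs mitochondrial DNA and starts its transcription, had 44.7 ± 4.90 CPM in fasted and 37.2 ± 1.21 CPM in fed livers, and Polg, its polymerase, had 32.1 ± 1.56 CPM in fasted and 31.2 ± 2.11 CPM in fed livers. None of 7 carriers passed, among them Slc25a5, which exchanges ATP for ADP, with 332 ± 33.5 CPM in fasted and 243 ± 38.7 CPM in fed livers, and Slc25a3, which imports phosphate, with 238 ± 27.9 CPM in fasted and 205 ± 18.3 CPM in fed livers. Of 5 genes of the chain that the symbols had missed, none passed and 4 had an estimate above 0. Their median log2 fold change was 0.048, beside 0.17 for the nuclear subunits. Cyc1 of complex III had 111 ± 16.9 CPM in fasted and 106 ± 37.1 CPM in fed livers. Cycs, cytochrome c, had 143 ± 21.1 CPM in fasted and 138 ± 35.1 CPM in fed livers. Ndufab1 of complex I, chosen after its values were seen, had the lowest estimate of the list, -0.26 (SE 0.17).

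Promoter windows, from 250 bases before to 50 bases after the start, were at hand for 69 of the 85 nuclear genes and for 17492 protein-coding genes (RefSeq, GRCm38.p6). Each was searched on both strands for 5 exact words that known regulators bind. A gene could have several windows, 21263 in all, and it was counted if any of them held the word. Genes with more windows thus had more chances to match. The NRF1 word GCGCATGCG was found for 11.6% of the subunit genes and 2.61% of all genes. The ETS word CCGGAAG was found for 23.2% and 12.95%, and the YY1 word AAGATGG for 17.4% and 7.18%. The word AAGGTCA of estrogen-related receptors was found for 11.6% of the subunit genes and 4.73% of all genes. The longer TCAAGGTCA, which contains it, was found for 2.9% and 0.38%. A match is a description of the letters, and windows of paired genes that share a start region are counted once for each gene.

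The longer receptor word was found in the windows of Sdhd and Atp5g3, which are shown because Esrra and its coactivator are among the regulators named above. Both windows are given 5′ to 3′ on the gene's strand, with the word (here as its reverse complement, TGACCTTGA) and the ETS word (reverse complement CTTCCGG) in capitals. In Sdhd the receptor word lies after the RefSeq start, and in Atp5g3 before it.

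Sdhd (chr9:50603800-50604099, minus strand): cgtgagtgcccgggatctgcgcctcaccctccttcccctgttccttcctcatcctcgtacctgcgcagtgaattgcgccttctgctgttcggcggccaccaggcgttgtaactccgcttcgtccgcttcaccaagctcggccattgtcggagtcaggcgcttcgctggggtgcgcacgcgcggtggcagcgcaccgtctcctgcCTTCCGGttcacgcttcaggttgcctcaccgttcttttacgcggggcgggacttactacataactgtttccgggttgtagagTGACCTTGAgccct
Atp5g3 (chr2:73911277-73911576, minus strand): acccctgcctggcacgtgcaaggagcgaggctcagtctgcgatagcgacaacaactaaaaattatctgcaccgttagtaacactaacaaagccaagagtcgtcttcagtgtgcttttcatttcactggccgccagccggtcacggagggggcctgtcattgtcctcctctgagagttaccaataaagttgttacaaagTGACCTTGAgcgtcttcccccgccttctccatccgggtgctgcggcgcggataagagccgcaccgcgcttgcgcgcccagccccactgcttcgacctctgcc

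Sdhd and Atp5g3 had log2 fold changes of 0.48 and 0.45, among the upper estimates of their complexes, and neither passed the test. Atp5g3 had 273, 220 and 268 CPM in fasted and 239, 179 and 140 CPM in fed libraries, which overlapped. The 6 other genes with the shorter receptor word were Ndufb2, Ndufb4, Ndufs5, Atp5e, Atp5k and Atp5l, whose log2 fold changes ran from -0.26 for Atp5e to 0.32 for Atp5l. No relation between words and fold changes was tested.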

How the data were processed

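Ribosome-depleted total RNA of 3 fasted and 3 fed mouse livers was sequenced from stranded libraries, per the labels' protocols. The authors deposited FPKM and estimated counts for 22564 protein-coding gene lines in 1 table, per the file headers. TopHat2, CASAVA 1.8 and hg19, a human build, are named per the submitters' processing notes, while the gene identifiers are those of mouse. The counting program, annotation and strand setting are unknown here.

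The deposited estimated counts were whole multiples of a step that differed between libraries: 89.3% to 90.1% of values lay within 0.02 of one. Counts were divided by that step and rounded, and lines sharing a symbol (162) were added, which left 22481 symbols. The comparison used edgeR 4.0.16 in R 4.3.3 (quasi-likelihood F test, two-sided), with TMM factors, no covariate and genes kept by its expression filter (minimum count 10), and called at a Benjamini-Hochberg adjusted p under 0.05. CPM are counts over TMM-adjusted library totals. The common biological coefficient of variation was 27.9%. DESeq2 1.42.0 and limma 3.58.1 on log2(FPKM + 1) were alternatives. The procedure was tested on simulated data. Nuclear copies were sought with BLAST 2.17.0, and coordinates came from GENCODE M21 (GRCm38) by identifier, for 98 of 98 genes. The counts per library set how small a change could be seen, and no technical repeat separates counting from handling.

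The genes and lists were chosen with earlier results of these data known. Genes were named by rule: subunits past the threshold, all genes of mitochondrial DNA, per complex the 3 of highest FPKM and the highest and lowest estimate, isoform pairs, and per list up to 4 genes past the threshold or else 2 of highest count. Subunits and list genes named otherwise are marked as chosen afterwards, with some exceptions. Ndufs1, Ndufa11 and Uqcrc1 were named for their low FPKM after the values were seen. Genes named for a promoter word or for a change of sign were named by that result. No naming rule covered the cell type markers or Gm10222, which were picked with their values known.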

Additional observations from a re-analysis of the deposited data

How the results depend on the processing

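The fit was repeated under 22 alternatives, 3 of them added after the data were seen. Among the other values, of single genes, medians and promoter words, 1958 kept their side of the threshold or moved within the spread. A further 3 gained and 6 lost the threshold, and 10 moved further. Estimates short of the threshold could change sign: that of Ndufc1 did so in 7 of 22 alternatives, and that of mt-Co2 in 5 of 19. The count of subunits past the threshold, 0 by edgeR, was 2 by DESeq2 and ranged from 0 to 1 when a library was left out, the 1 being mt-Nd6 without fed library 1. Over all genes tested, 293 passed by edgeR, against 1049 by DESeq2, 190 with library totals in place of TMM factors, 173 by limma on log2(FPKM + 0.1), 40 by limma on log2(FPKM + 1) without a filter, and 3 to 754 with a library left out (3 without fasted library 2, 754 without fed library 3). Of the lists' genes, 1 passed by edgeR, 6 by DESeq2, 0 by limma on log2(FPKM + 1) without a filter and 0 to 3 with a library left out. The causes were not tested.

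Library numbers are shared between groups in the labels, but libraries of the same number did not deviate together (correlations of -0.0739, 0.183 and -0.126). With the replicate number as a block, 0 subunits, 29 genes in all and 0 genes of the lists passed, and Hsd17b10 had an adjusted p of 0.0657 by edgeR.

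With 3 libraries a group, changes of the size estimated for most subunits could not be told from 0. The fed libraries also differed in acute phase transcript, and the part of that difference was not tested.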
